A study of Mus musculus with 16 samples.

Results

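The TNF superfamily and NF-kB pathway genes described here are the genes in a merged table of H3K4me2 peaks whose symbols begin with Tnfrsf, Tnfsf, Tnfaip, Traf or Nfkb (Tnfrsf, Tnfsf and Traf followed by a digit), together with Rel, Rela, Relb, Ltbr, Cd40, Map3k14, Birc2 and Birc3. The table assigns each peak to the gene with the nearest transcription start site. By this rule 131 of 29472 peaks and 55 of 15739 genes were members: 20 receptors, 7 ligands, 10 TRAF and cIAP adaptors or ligases, 1 kinase, 5 NF-kB subunits, 6 genes of the IkB family and 6 genes named as TNF-induced. No measured level entered the rule. Dimethylation of histone H3 at lysine 4 (H3K4me2) marks the chromatin of promoters and of enhancers.

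Medullary thymic epithelial cells (mTEC) of C57BL/6 mouse thymus were sorted into 4 populations, and each population gave 2 H3K4me2 libraries made with a high-throughput chromatin immunoprecipitation derived from iChIP. The sort took CD45-negative, Epcam-positive cells throughout. To this, mTEC-I added low MHC class II and Itgb4, mTEC-II added high MHC class II, mTEC-III added Ly6D, and mTEC-IV added low MHC class II, no Itgb4 and L1cam. No treatment or altered gene is named for any group, the age of the mice is not stated, and the 8 whole-cell extracts were not analysed here. Whether the libraries of a pair come from separate mice is not in the labels, so p-values cover the spread among these 8 libraries only, and that spread may be technical.

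Receptors of the TNF family signal through TRAF adaptors to NF-kB. In the canonical branch the IkB kinase complex releases Rela and Nfkb1 from IkB, and in the non-canonical branch the kinase NIK (Map3k14), held low by Traf2, Traf3 and the cIAP ligases, drives the processing of Nfkb2 and its pairing with Relb. In the thymic medulla, RANK (Tnfrsf11a), CD40 and the lymphotoxin beta receptor (Ltbr) are the receptors known for driving the growth and maturation of mTEC, with RANKL (Tnfsf11) supplied mainly by haematopoietic cells.

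Library totals ran from 1702103.5 tags (mTEC-I replicate 2) to 15412132.5 tags (mTEC-II replicate 1), and 31.89% to 35.4% of tags fell in the merged peaks. In mTEC-I replicate 2, 1 tag is worth 5.88 tags per 10000000, so its low values are the least precise. Over all genes, the log2 difference between the 2 replicates had an SD of 0.50 in mTEC-I, 0.17 in mTEC-II, 0.25 in mTEC-III and 0.23 in mTEC-IV. A gene's level is the sum of its peaks in tags per 10000000 tags of the library. In such bulk samples fewer cells with the mark and less mark per cell cannot be told apart. All 6 epithelial markers (Epcam, Cdh1, Krt8, Krt18, Krt5 and Foxn1) had peaks, and their summed level was between 3175 and 4163 in every library.

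The promoters of several members carry the motif that NF-kB binds, so the stretches that hold it are shown before the levels. The classical kappaB consensus (10 bases, starting GGG on 1 of the strands; both strands were searched, and overlapping matches were counted) was searched in the 250 bases upstream of RefSeq start sites (GRCm38.p6). Of the 55 members, 45 had a promoter entry, and 12 of these (26.7%) held a match, against 8.23% of 27025 genes overall. All members have an H3K4me2 peak, while the 27025 genes were taken with or without one. The sets were not matched for the mark or for base content, so the shares are not a test. The matches were in Nfkb2, Nfkbia, Nfkbid, Nfkbie, Rel, Tnfaip2, Tnfaip3, Tnfaip8l1, Tnfrsf25, Tnfrsf8, Tnfrsf9 and Traf3. No entry was found for Cd40, Nfkb1, Nfkbiz, Relb, Tnfaip8, Tnfrsf10b, Tnfrsf11b, Tnfrsf22, Tnfsf4 and Traf3ip2. A match is a description of these letters, not evidence of binding. Capitals mark the match in the lines that follow, each written 5′ to 3′ on the gene's own strand. The stretches are chr19:46304658-46304736 (+ strand) for Nfkb2, chr12:55492648-55492716 (- strand) for Nfkbia, chr11:23771011-23771101 (- strand) for Rel, chr4:150927916-150927998 (+ strand) for Tnfrsf9, chr4:145315282-145315372 (- strand) for Tnfrsf8 and chr12:111166320-111166369 (+ strand) for Traf3.
Nfkb2: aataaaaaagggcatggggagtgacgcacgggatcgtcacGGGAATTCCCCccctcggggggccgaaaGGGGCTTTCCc
Nfkbia: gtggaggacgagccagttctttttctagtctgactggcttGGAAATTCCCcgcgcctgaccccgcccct
Rel: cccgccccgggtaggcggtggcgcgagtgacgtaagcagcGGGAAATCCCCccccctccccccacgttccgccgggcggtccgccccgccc
Tnfrsf9: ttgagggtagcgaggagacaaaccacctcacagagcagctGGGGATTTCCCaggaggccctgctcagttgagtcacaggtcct
Tnfrsf8: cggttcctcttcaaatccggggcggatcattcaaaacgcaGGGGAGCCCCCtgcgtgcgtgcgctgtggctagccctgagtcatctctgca
Traf3: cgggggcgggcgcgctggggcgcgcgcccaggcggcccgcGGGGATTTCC
In Nfkb2, which encodes the precursor p100 of the non-canonical branch, the matches in the stretch shown began 39, 38 and 11 bases before the first of 3 start sites with a match, and 1 match each began 236 and 225 bases before the other two. The match of Nfkbia, the inhibitor IkB alpha, began 29 bases before its start site, and those of Tnfrsf9 (4-1BB) began 43 and 42 bases before it. In Rel (c-Rel) they began 92 and 91 bases before it, in Tnfrsf8 (CD30) 168 and 167, and in Traf3 10.

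H3K4me2 differed among the 4 populations at most members. The F test of limma called 35 of the 55 genes (63.6%), against 54.2% of all 15738 genes tested, and 88 of the 131 peaks (67.2%), against 58.2% of 29469 peaks. Throughout, a gene or peak was called at a Benjamini-Hochberg adjusted p under 0.05 over all genes or peaks, and log2 differences compare 1 population with the mean of the other 3 on the log2(level + 1) scale. In the heat map of all member genes the deepest colours are those of receptors and ligands, among them Tnfrsf13b, Tnfrsf9, Tnfrsf8, Tnfsf4 and Tnfsf18.

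**Figure D1:**
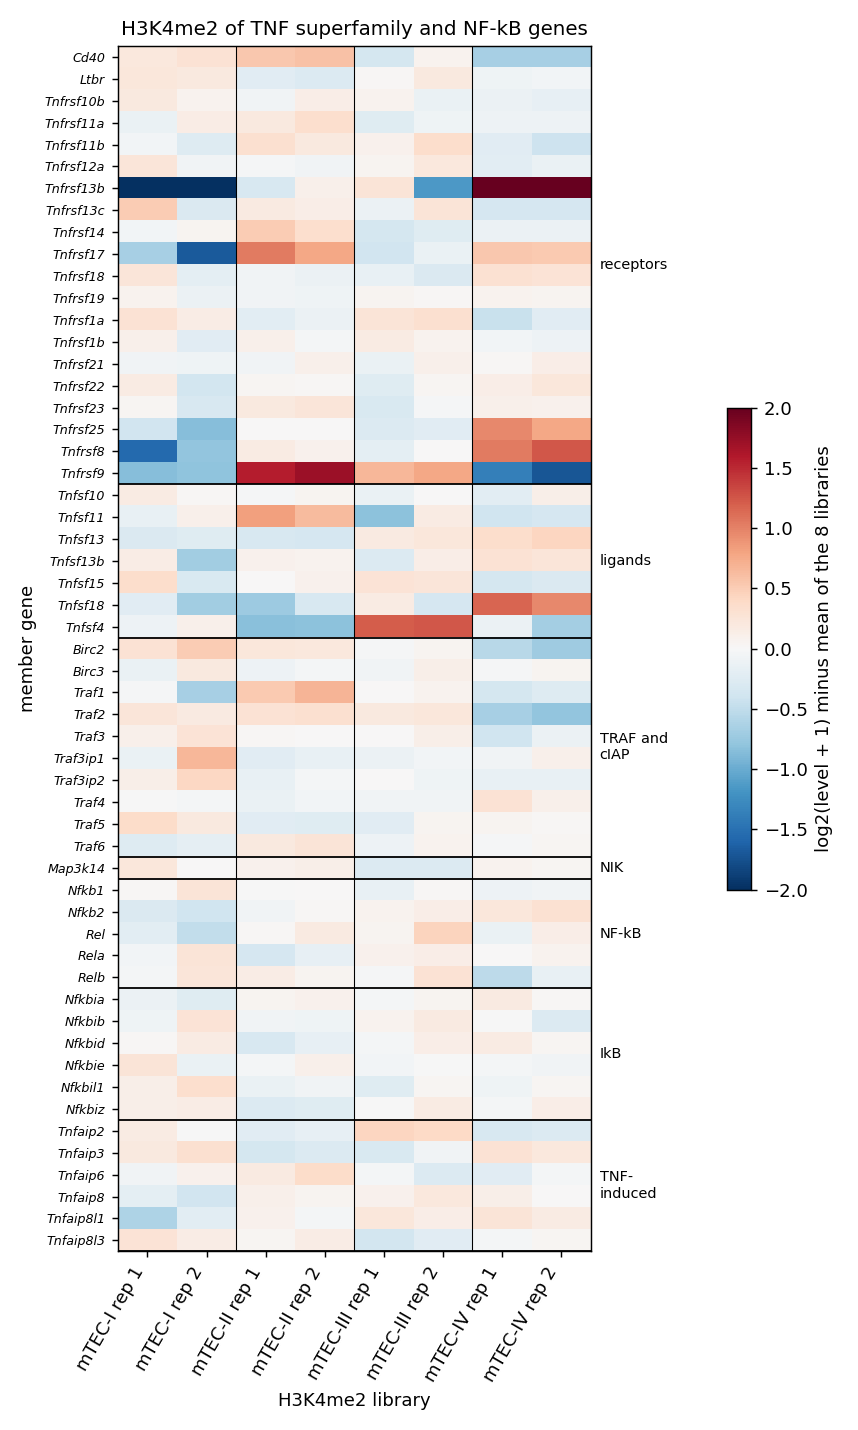
Each row is a member gene, grouped by role, and each column is 1 of the 8 libraries. Colour gives the log2(level + 1) of the gene minus its mean over the 8 libraries. Tnfrsf9 is red in both mTEC-II libraries and blue in both mTEC-IV libraries, and Tnfrsf8 is red in mTEC-IV and blue in mTEC-I.

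Against the mean of the other populations, mTEC-I had 13 member genes higher and 14 lower, where 17.2% and 17.7% of all genes were called. In mTEC-II 12 were higher and 10 lower (8.56% and 11.2% of all genes), in mTEC-III 8 were higher and 5 lower (12.1% and 16.7%), and in mTEC-IV 10 were higher and 11 lower (20.4% and 12.6%). Among higher calls the largest share of the 55 members was that of mTEC-I (23.6%), followed by mTEC-II (21.8%), mTEC-IV (18.2%) and mTEC-III (14.5%). For lower calls the order was mTEC-I (25.5%), mTEC-IV (20%), mTEC-II (18.2%) and mTEC-III (9.09%). The median log2 difference of the members was 0.03 in mTEC-I, 0.03 in mTEC-II, -0.02 in mTEC-III and -0.01 in mTEC-IV, beside 0.04, -0.09, 0.01 and 0.02 over all genes. The split of directions moved with the scaling: with equal totals in peaks mTEC-II had 16 higher and 5 lower and mTEC-IV 7 and 17, and with cyclic loess they had 13 and 5 and 6 and 14. In mTEC-I the split was 7 and 13 with cyclic loess and 6 and 14 with edgeR. The number called in mTEC-II fell from 22 to 7 and 8 without its replicate 1 or 2, and in mTEC-IV from 21 to 12 without its replicate 1. In mTEC-III it went from 13 to 8 without either of its replicates and to 20 without mTEC-I replicate 2.

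**Figure D2:**
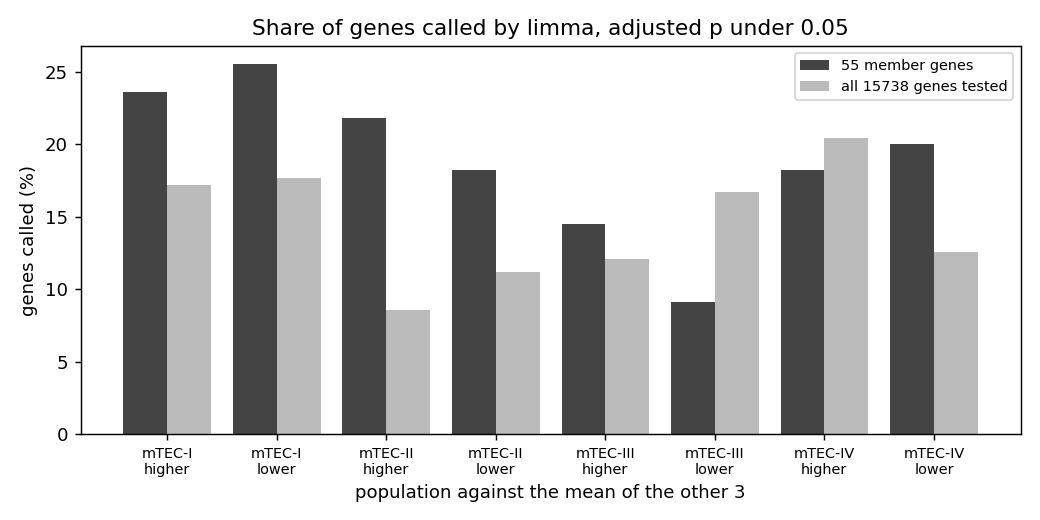
Bars give the percentage of genes called by limma in each population against the mean of the other 3, for the 55 member genes (dark) and all 15738 genes tested (light). The dark bar stands furthest above the light one for mTEC-II higher (21.8%, against 8.56%). It stands below the light one only for mTEC-III lower (9.09%, against 16.7%) and, by little, for mTEC-IV higher (18.2%, against 20.4%).

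Without any model, both mTEC-II libraries lay above all 6 other libraries for 11 members (20% of 55, against 6.57% of all genes) and below them for 7 (12.7%, against 12%). Both mTEC-IV libraries lay above the rest for 9 members (16.4%, against 18.4%) and below them for 11 (20%, against 10.1%). In mTEC-I the counts were 5 above (14.7% of all genes) and 10 below (11.2%), and in mTEC-III 2 above (11.5%) and 3 below (12.3%). The 11 members highest in both mTEC-II libraries were Cd40, Tnfaip6, Tnfrsf11a, Tnfrsf14, Tnfrsf17, Tnfrsf23, Tnfrsf9, Tnfsf11, Traf1, Traf2 and Traf6.

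Of the 20 receptors, the F test called 12 (60%, against 54.2% of all genes). In mTEC-II 6 receptors were higher and 1 lower (8.56% and 11.2% of all genes), in mTEC-IV 5 were higher and 4 lower (20.4% and 12.6%), in mTEC-I 3 were higher and 5 lower (17.2% and 17.7%), and in mTEC-III 2 were higher and 2 lower (12.1% and 16.7%). The receptors known for mTEC growth did not share 1 order over the populations.

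Cd40, the receptor for CD40 ligand, had a single peak, which covers its start site. Its level was 231 and 244 tags per 10000000 (mTEC-I), 290.4 and 299.5 (mTEC-II), 156 and 210.2 (mTEC-III) and 125 and 125 (mTEC-IV). Both mTEC-II libraries were above all others and both mTEC-IV libraries below all others. The gene was higher in mTEC-II by 0.75 ± 0.11 (SE, log2; limma, adjusted p = 0.000283) and differed in mTEC-IV by -0.89 ± 0.11 (SE, log2; limma, adjusted p = 1.2e-05). These calls were kept when any of the 8 libraries was left out. A smaller difference of 0.33 ± 0.11 (SE, log2; limma, adjusted p = 0.0308) in mTEC-I ended when any of 6 of 8 libraries was left out one at a time (limma, adjusted p from 0.0541 to 0.0779).

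Tnfrsf11a, the receptor RANK, had 9 peaks, from 32.3 kb upstream to 102.9 kb downstream of its start site, assigned to it by distance alone. Its summed level was 657 and 805 tags per 10000000 (mTEC-I), 828 and 915 (mTEC-II), 610.0 and 684 (mTEC-III) and 671 and 672 (mTEC-IV). The mTEC-II libraries were highest, and the difference of 0.35 ± 0.076 (SE, log2; limma, adjusted p = 0.00428) was lost without mTEC-II replicate 2, at 0.28 (adjusted p = 0.15). Against mTEC-I alone, the gene was not called in mTEC-II (limma, adjusted p = 0.0532). The peaks of the gene did not move together. The start-site peak stood at 452 and 517 (mTEC-I), 482 and 508 (mTEC-II), 358 and 406 (mTEC-III) and 367 and 360.2 (mTEC-IV), so mTEC-I and mTEC-II overlapped there. The peak 4.5 kb upstream (chr1:107671676-107673910, mm9) stood at 46.4 and 47.00 tags per 10000000 (mTEC-I), 50.3 and 69.98 (mTEC-II), 13.9 and 18.2 (mTEC-III) and 7.70 and 7.17 (mTEC-IV). The one 23.1 kb upstream stood at 27.1 and 35.2 tags per 10000000 (mTEC-I), 36.3 and 40.4 (mTEC-II), 6.31 and 15.3 (mTEC-III) and 4.40 and 2.99 (mTEC-IV). At both, every mTEC-I and mTEC-II library was above every mTEC-III and mTEC-IV library, whereas the peak 84.7 kb downstream was highest in both mTEC-IV libraries. These RANK peaks were singled out after their values were seen and carry no test.

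**Figure D3:**
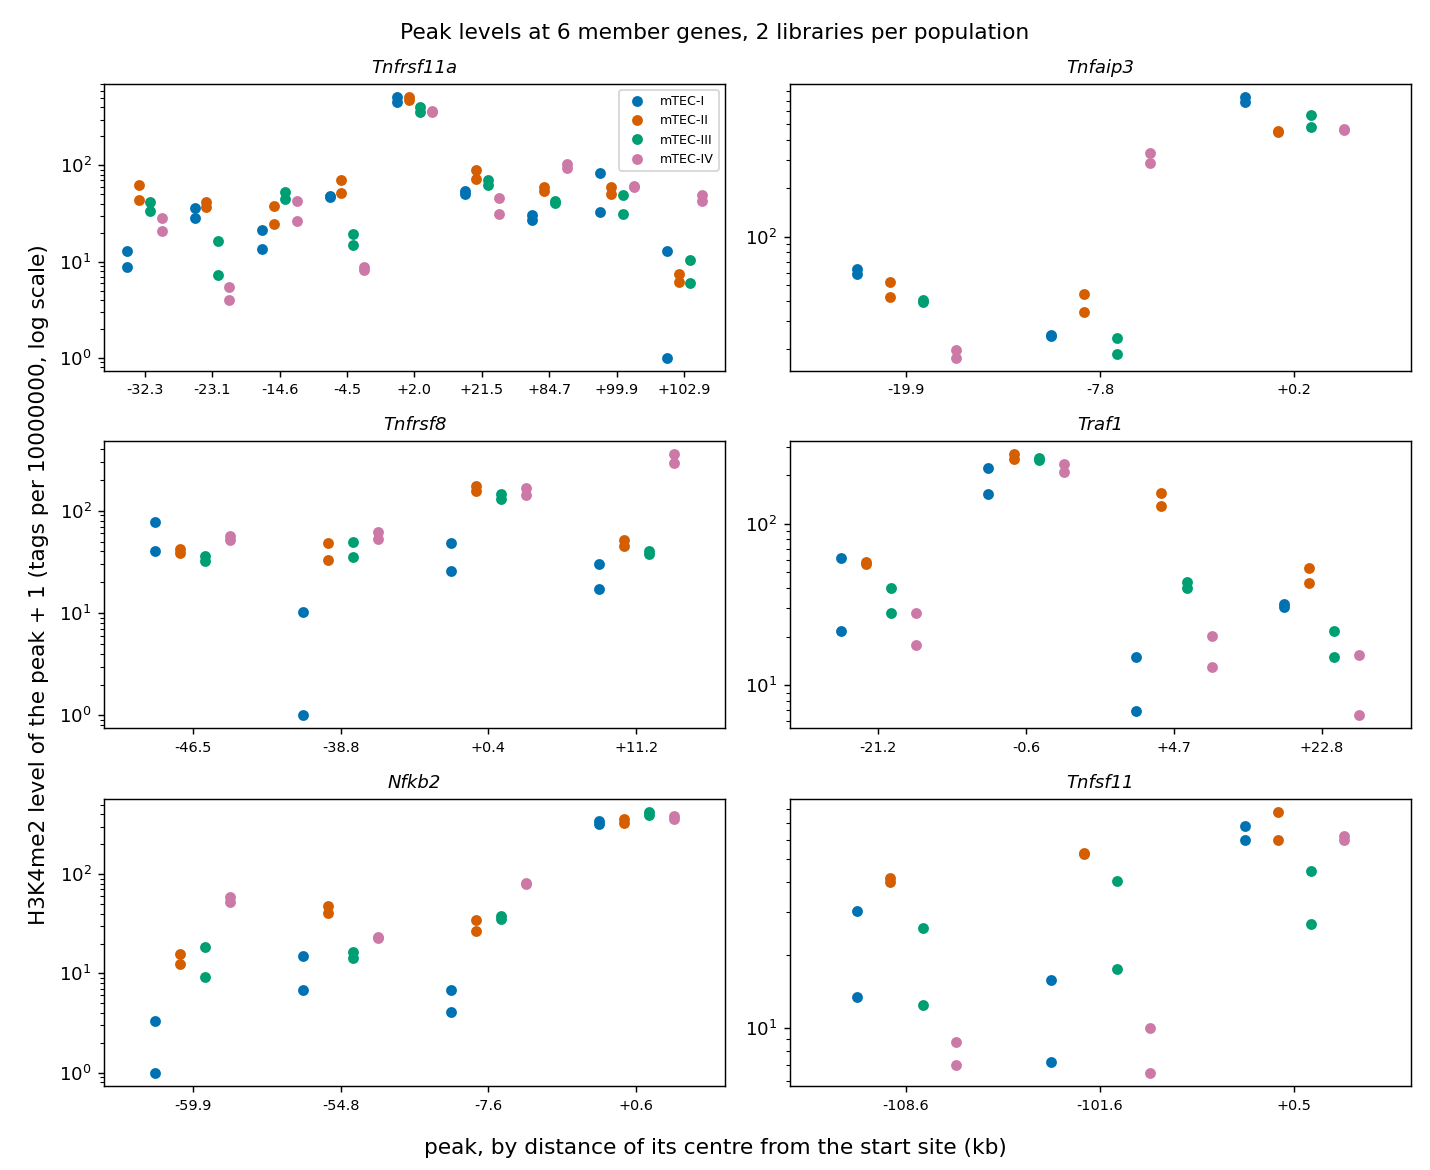
Each panel shows the peaks of 1 member gene, placed in order of the distance of the peak centre from the start site in kb. The vertical axis is the H3K4me2 level plus 1 in tags per 10000000 on a log scale, and each point is 1 library, coloured by population. At Tnfaip3 and Tnfrsf8 the mTEC-IV points stand far above the others at 1 distal peak each, and at Traf1 the mTEC-II points do so 4.7 kb from the start site.

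Ltbr, the receptor for lymphotoxin and LIGHT, had the opposite order to Cd40 in mTEC-II. Its level was 245 and 241 tags per 10000000 (mTEC-I), 178 and 173 (mTEC-II), 214 and 241 (mTEC-III) and 197 and 201 (mTEC-IV). The mTEC-II libraries were the lowest and those of mTEC-I the highest, the latter by little. Replicate 2 of mTEC-I stood at 240.88 and replicate 2 of mTEC-III at 240.81, and mTEC-III against mTEC-I was not called (limma, adjusted p = 0.569). The difference of -0.34 ± 0.093 (SE, log2; limma, adjusted p = 0.0183) in mTEC-II ended without either mTEC-II library (adjusted p from 0.163 to 0.225). The difference of 0.28 ± 0.093 (SE, log2; limma, adjusted p = 0.0284) in mTEC-I ended when any of 6 of 8 libraries was left out one at a time (limma, adjusted p from 0.0507 to 0.0765). Both calls also ended with cyclic loess scaling (adjusted p = 0.0996 and 0.087).

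Tnfrsf11b encodes osteoprotegerin, the secreted decoy receptor that binds RANKL. It stood at 217 and 188 tags per 10000000 (mTEC-I), 281 and 258 (mTEC-II), 239 and 286 (mTEC-III) and 192 and 168 (mTEC-IV). The mTEC-II and mTEC-III libraries were above all others. The gene was lower in mTEC-IV, at -0.43 ± 0.10 (SE, log2; limma, adjusted p = 0.00459), a call that was lost without mTEC-IV replicate 2, at -0.33 (adjusted p = 0.131).

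The largest log2 difference of a member gene in mTEC-II was at Tnfrsf9 (4-1BB), a costimulatory receptor best known from T cells. Its single peak covers the start site that the kappaB matches precede, and it stood at 17.02 and 17.6 tags per 10000000 (mTEC-I), 95.7 and 105 (mTEC-II), 50.5 and 54.8 (mTEC-III) and 11.6 and 8.96 (mTEC-IV). The populations did not overlap, with mTEC-II highest, then mTEC-III, mTEC-I and mTEC-IV. The last step, mTEC-IV against mTEC-I, was not called (limma, adjusted p = 0.0762). In mTEC-I replicate 2 a count of 0 allows up to 17.6 tags per 10000000, the level seen there. The difference was 2.19 ± 0.24 (SE, log2; limma, adjusted p = 2.22e-05) in mTEC-II and -2.05 ± 0.24 (SE, log2; limma, adjusted p = 7.04e-06) in mTEC-IV, and both calls were kept without any 1 library. In mTEC-III it was 0.96 ± 0.24 (SE, log2; limma, adjusted p = 0.00702), which ended without either mTEC-III library (adjusted p from 0.0649 to 0.0863).

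Tnfrsf14 (HVEM), which binds LIGHT and BTLA, was highest in mTEC-II as well. Its level was 292 and 317 tags per 10000000 (mTEC-I), 432 and 384 (mTEC-II), 238 and 256 (mTEC-III) and 279 and 279.6 (mTEC-IV). It was higher in mTEC-II by 0.56 ± 0.083 (SE, log2; limma, adjusted p = 0.00027) and lower in mTEC-III, with a difference of -0.40 ± 0.083 (SE, log2; limma, adjusted p = 0.00177). Tnfrsf17 (BCMA), a receptor of plasma cells, stood at 24.8 and 11.8 tags per 10000000 (mTEC-I), 82.7 and 68.9 (mTEC-II), 30.3 and 36.5 (mTEC-III) and 58.3 and 57.95 (mTEC-IV). Both mTEC-I libraries were below all others, a difference of -1.57 ± 0.26 (SE, log2; limma, adjusted p = 0.000261). The rise of 1.20 ± 0.26 (SE, log2; limma, adjusted p = 0.00466) in mTEC-II ended without either mTEC-II library (adjusted p from 0.0604 to 0.141).

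Tnfrsf1a (TNFR1), the broadly used TNF receptor, had a different order. It stood at 406 and 370.1 tags per 10000000 (mTEC-I), 286 and 305 (mTEC-II), 397 and 415 (mTEC-III) and 245 and 286 (mTEC-IV). The mTEC-I and mTEC-III libraries were above all mTEC-II and mTEC-IV libraries. The gene was lower in mTEC-IV, at -0.44 ± 0.084 (SE, log2; limma, adjusted p = 0.000632), and higher in mTEC-III, at 0.38 ± 0.084 (SE, log2; limma, adjusted p = 0.00283). The mTEC-III call was lost without mTEC-III replicate 2 (adjusted p = 0.0539).

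Tnfrsf8 and Tnfrsf25 were the receptors of smallest p that were higher in mTEC-IV. Tnfrsf8 (CD30), whose signalling is known from activated lymphocytes, stood at 89.8 and 153 tags per 10000000 (mTEC-I), 297 and 282 (mTEC-II), 232 and 267 (mTEC-III) and 546 and 631 (mTEC-IV). The mTEC-IV libraries were above all others and the mTEC-I libraries below all others. The difference was 1.52 ± 0.14 (SE, log2; limma, adjusted p = 6.34e-07) in mTEC-IV and -1.56 ± 0.14 (SE, log2; limma, adjusted p = 7.98e-07) in mTEC-I, and both calls were kept without any 1 library. A peak in intron 1, 11.2 kb from the start site (chr4:144890642-144896972, mm9), stood at 16.2 and 29.4 tags per 10000000 (mTEC-I), 50.9 and 44.1 (mTEC-II), 36.6 and 39.5 (mTEC-III) and 291 and 356 (mTEC-IV). There the mTEC-IV difference was 3.20 ± 0.22 (SE, log2; limma, adjusted p = 8.68e-07). The peak over the start site was instead low in mTEC-I, at 24.8 and 47.00 tags per 10000000 (mTEC-I), 172 and 154 (mTEC-II), 129 and 144 (mTEC-III) and 143 and 167 (mTEC-IV), with a difference of -2.11 ± 0.20 (SE, log2; limma, adjusted p = 1.7e-05) there.

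Tnfrsf25 (DR3), the receptor for TL1A, stood at 81.2 and 58.8 tags per 10000000 (mTEC-I), 107 and 107 (mTEC-II), 88.3 and 91.3 (mTEC-III) and 208 and 183 (mTEC-IV). Both mTEC-IV libraries were above and both mTEC-I libraries below all others, with differences of 1.15 ± 0.14 (SE, log2; limma, adjusted p = 1.24e-05) and -0.83 ± 0.14 (SE, log2; limma, adjusted p = 0.000375). Tnfrsf13b (TACI), a receptor of B cells singled out here after its values were seen, had 1 peak, 2.0 kb upstream of its start site. It was at 0 in both mTEC-I libraries, where a count of 0 allows up to 4.64 and 17.6 tags per 10000000, and it stood at 3.89 and 5.55 (mTEC-II), 6.31 and 1.77 (mTEC-III) and 66.0 and 44.2 (mTEC-IV). The mTEC-IV libraries were far above the rest.

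Markers of some other cell types, but not of all those listed, were also highest in mTEC-IV. The B cell markers with a peak (3 of 5; Ms4a1 was not among them) summed to between 351 and 383 in mTEC-IV, against 221 to 249.5 (mTEC-II), 131 to 144 (mTEC-III) and 61.7 to 72.7 (mTEC-I) elsewhere. Ptprc, which encodes the CD45 that the sort excluded, stood between 265 and 269 in mTEC-IV and between 30.0 and 48.9 elsewhere. Of 8 thymocyte markers only Themis had a peak, at 122 to 134 in mTEC-IV and at most 81.4 elsewhere, and Cd3e, Cd3g, Cd4, Cd8a, Lck, Rag1 and Ptcra had none. The endothelial markers (5 of 5) summed to between 862 and 877 in mTEC-IV and at most 470.0 elsewhere, and the tuft cell markers (6 of 6) to between 4912 and 5024, against at most 1136. Dendritic cell and macrophage markers (5 of 7) summed to 399 to 508 over the 8 libraries, and fibroblast markers (3 of 6) to 187 to 505. Neither list was highest in mTEC-IV. The first stood at 420.1 to 422.4 there and at 482.6 to 508.1 in mTEC-III. The fibroblast list stood at 386.5 to 401.5 there and at 407.8 to 505.2 in mTEC-I. The part of other cell types in the mTEC-IV levels of Tnfrsf8, Tnfrsf25 and Tnfrsf13b was not tested.

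**Figure D4:**
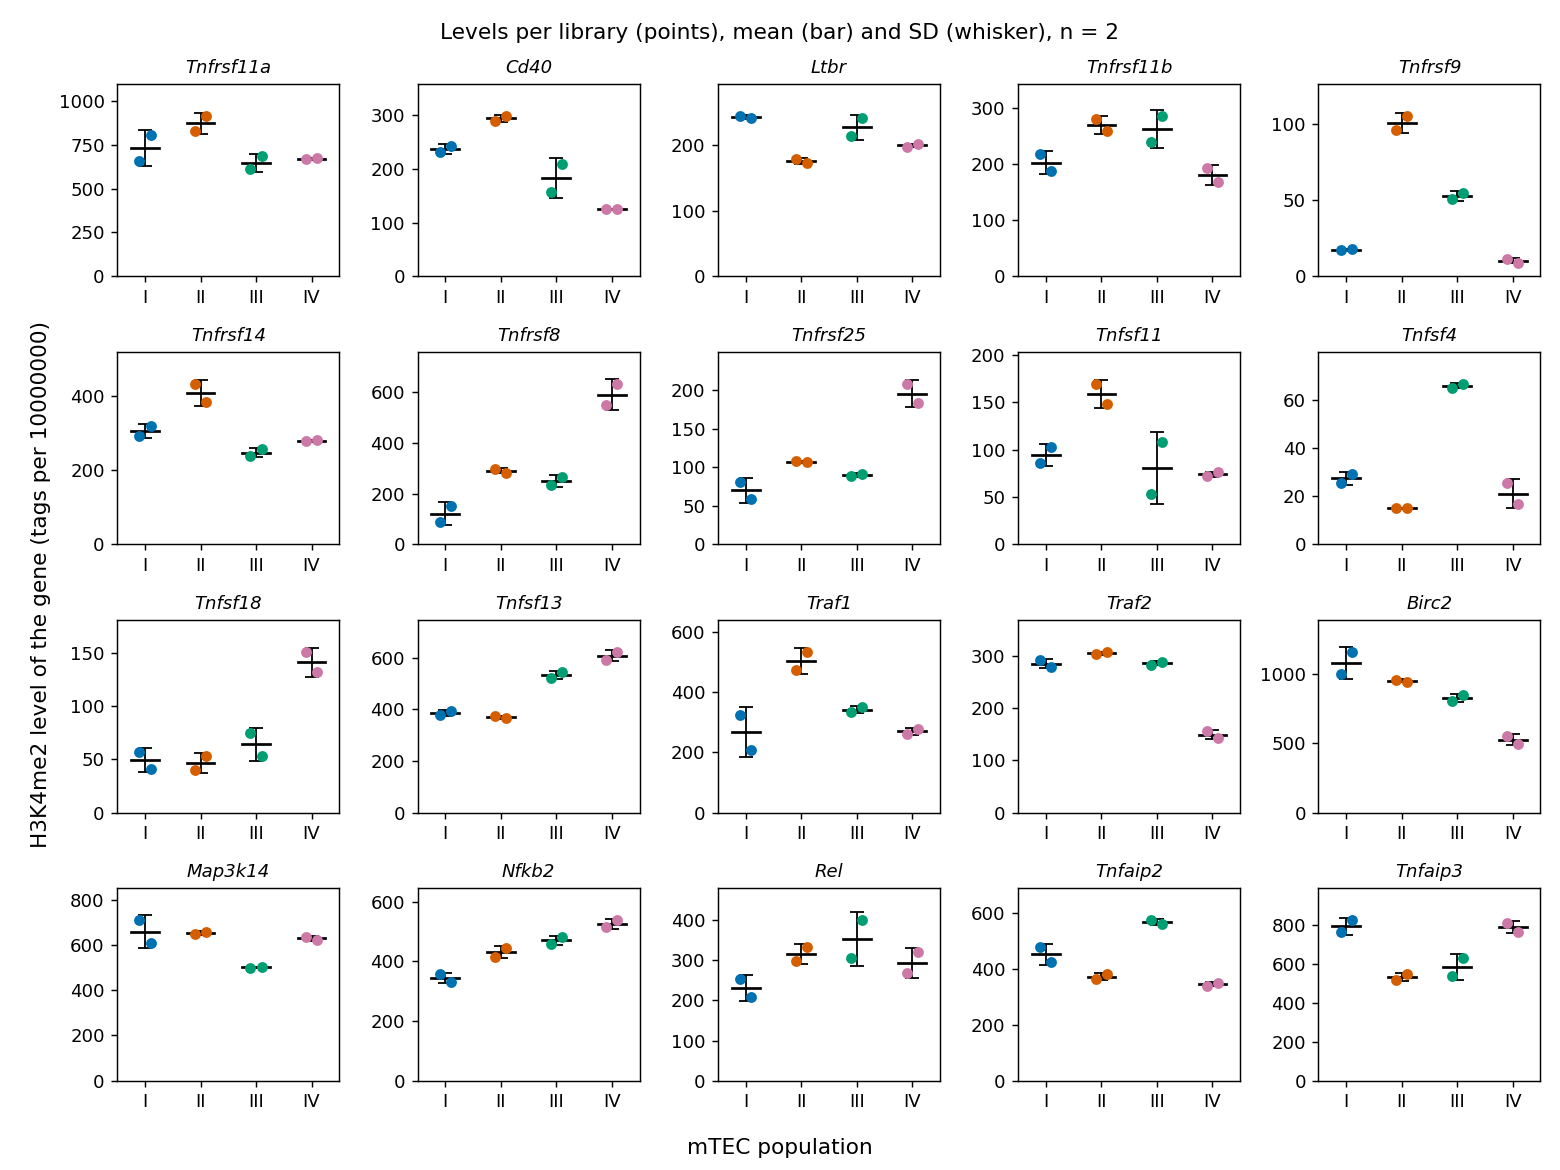
Each panel shows 1 member gene, with the level in tags per 10000000 on a vertical axis that starts at 0 and the 4 mTEC populations on the horizontal axis. Points are the 2 libraries of a population, the bar is their mean and the whisker their SD. Cd40, Tnfrsf9, Traf1 and Tnfsf11 peak in mTEC-II, Tnfrsf8, Tnfrsf25, Tnfsf18 and Tnfsf13 in mTEC-IV, and Tnfsf4 and Tnfaip2 in mTEC-III.

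Of the 7 ligands, the F test called 4 (57.1%, against 54.2% of all genes). Tnfsf11 (RANKL) stood at 85.9 and 103 tags per 10000000 (mTEC-I), 169 and 148 (mTEC-II), 53.6 and 108 (mTEC-III) and 72.03 and 75.9 (mTEC-IV). Both mTEC-II libraries were above all others, a difference of 0.96 ± 0.20 (SE, log2; limma, adjusted p = 0.00362). The call was lost without mTEC-II replicate 1, at 0.87 (adjusted p = 0.0986), and over peaks within 20 kb of the start site, at 0.41 (adjusted p = 0.213). The gene's distal peaks lie 101.6 and 108.6 kb upstream, and the nearer one stood at 6.19 and 14.7 tags per 10000000 (mTEC-I), 51.6 and 51.1 (mTEC-II), 16.4 and 39.5 (mTEC-III) and 5.50 and 8.96 (mTEC-IV). It was above all other libraries in both mTEC-II libraries, but it was singled out after its values were seen and carries no test. Its level of 14.7 in mTEC-I replicate 2 is under the 17.6 that a count of 0 allows there. Both distal peaks were assigned to Tnfsf11 by distance alone.

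Tnfsf4 (OX40L) and Tnfsf18 (GITRL), which costimulate T cells, are neighbours on chromosome 1, and neither had a peak over its start site. The Tnfsf4 peak, 49.1 kb from the start site it was assigned to, stood at 25.5 and 29.4 tags per 10000000 (mTEC-I), 14.9 and 15.2 (mTEC-II), 64.98 and 66.5 (mTEC-III) and 25.3 and 16.7 (mTEC-IV). Both mTEC-III libraries were above all others, by 1.64 ± 0.27 (SE, log2; limma, adjusted p = 0.00028), a call kept without any 1 library. Tnfsf18 had 3 peaks, 31.7, 118.8 and 122.1 kb from its start site, and they were assigned to it by distance alone. Summed, they stood at 57.3 and 41.1 tags per 10000000 (mTEC-I), 39.9 and 53.3 (mTEC-II), 75.1 and 53.00 (mTEC-III) and 151 and 131 (mTEC-IV), with the mTEC-IV libraries above all others. The difference in mTEC-IV was 1.42 ± 0.20 (SE, log2; limma, adjusted p = 3.94e-05) and was no longer called with cyclic loess scaling, at 0.36 (adjusted p = 0.242).

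Tnfsf13 (APRIL), a ligand of BCMA and TACI, stood at 378 and 394 tags per 10000000 (mTEC-I), 373 and 365 (mTEC-II), 522 and 545 (mTEC-III) and 592 and 623 (mTEC-IV). The mTEC-IV libraries were highest, then mTEC-III, and those of mTEC-I and mTEC-II were lowest. The difference was 0.52 ± 0.066 (SE, log2; limma, adjusted p = 1.42e-05) in mTEC-IV and -0.44 ± 0.066 (SE, log2; limma, adjusted p = 0.000306) in mTEC-II. Its peak lies in introns of the joined Tnfsf12-Tnfsf13 transcript (RefSeq Tnfsfm13), so the mark cannot be assigned to 1 of these genes.

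Of the 10 TRAF and cIAP members, the F test called 7 (70%, against 54.2% of all genes). In mTEC-I 5 were higher and 2 lower (17.2% and 17.7% of all genes), in mTEC-II 4 were higher and 1 lower (8.56% and 11.2%), in mTEC-III 1 was higher and 0 lower (12.1% and 16.7%), and in mTEC-IV 1 was higher and 4 lower (20.4% and 12.6%). Traf2, Traf3, Birc2 and Birc3 encode the ligase complex that holds NIK low. Birc2 (cIAP1) stood at 1001 and 1160.3 tags per 10000000 (mTEC-I), 959 and 944 (mTEC-II), 805 and 850.2 (mTEC-III) and 553 and 499 (mTEC-IV). The mTEC-IV libraries were below all others and the mTEC-I libraries above all others, with differences of -0.85 ± 0.065 (SE, log2; limma, adjusted p = 6.23e-08) and 0.53 ± 0.065 (SE, log2; limma, adjusted p = 1.45e-05). Both calls were kept without any 1 library.

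Traf2, which recruits the cIAP ligases, stood at 292 and 279 tags per 10000000 (mTEC-I), 304 and 308 (mTEC-II), 283 and 289 (mTEC-III) and 156 and 143 (mTEC-IV). The difference of -0.96 ± 0.085 (SE, log2; limma, adjusted p = 2.84e-07) in mTEC-IV was kept without any 1 library, and the other populations lay within 279 to 308. Traf3, which docks NIK to that complex, stood at 329.6 and 373 tags per 10000000 (mTEC-I), 314 and 309 (mTEC-II), 312 and 334 (mTEC-III) and 234 and 283 (mTEC-IV). It was lower in mTEC-IV, at -0.35 ± 0.091 (SE, log2; limma, adjusted p = 0.00706), which was lost without mTEC-IV replicate 1, at -0.21 (adjusted p = 0.232). Birc3 (cIAP2) was not called by the F test (limma, adjusted p = 0.843) and ranged from 290.2 to 364 over the 8 libraries.

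Traf1, itself a well-known NF-kB target gene, was highest in mTEC-II. Its level was 326 and 209 tags per 10000000 (mTEC-I), 475 and 534 (mTEC-II), 334 and 349.7 (mTEC-III) and 261 and 278 (mTEC-IV). The difference of 0.80 ± 0.12 (SE, log2; limma, adjusted p = 0.000351) was kept without any 1 library, while that of -0.46 ± 0.12 (SE, log2; limma, adjusted p = 0.00866) in mTEC-I fell to -0.14 (adjusted p = 0.263) without mTEC-I replicate 2. A peak in intron 5 (chr2:34810662-34814612, mm9) stood at 13.9 and 5.88 tags per 10000000 (mTEC-I), 128 and 155 (mTEC-II), 39.1 and 42.4 (mTEC-III) and 19.2 and 11.9 (mTEC-IV). There the mTEC-II difference was 2.90 ± 0.32 (SE, log2; limma, adjusted p = 0.00022).

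Traf6, the adaptor of RANK and CD40 to the canonical branch, stood at 180.3 and 191 tags per 10000000 (mTEC-I), 248 and 261 (mTEC-II), 202 and 227 (mTEC-III) and 214 and 223 (mTEC-IV). The mTEC-II libraries were highest and those of mTEC-I lowest. Its differences of 0.31 ± 0.093 (SE, log2; limma, adjusted p = 0.0297) in mTEC-II and -0.30 ± 0.093 (SE, log2; limma, adjusted p = 0.0214) in mTEC-I were lost when 1 of several libraries was left out (adjusted p from 0.057 to 0.308 and from 0.0501 to 0.0687). Traf5 and Traf3ip2 (Act1, the adaptor of IL-17 receptors) were highest in mTEC-I. Traf5 stood at 276 and 244 tags per 10000000 (mTEC-I), 182 and 181 (mTEC-II), 182 and 221 (mTEC-III) and 222 and 217 (mTEC-IV), a difference of 0.38 ± 0.10 (SE, log2; limma, adjusted p = 0.00927) in mTEC-I. Traf3ip2 stood at 313 and 385 tags per 10000000 (mTEC-I), 261 and 281 (mTEC-II), 290.2 and 271 (mTEC-III) and 258 and 260.5 (mTEC-IV), with a difference of 0.36 ± 0.091 (SE, log2; limma, adjusted p = 0.00622) that was lost without mTEC-I replicate 2, at 0.21 (adjusted p = 0.102).

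Map3k14, which encodes NIK, stood at 709.6 and 608 tags per 10000000 (mTEC-I), 646 and 659 (mTEC-II), 499 and 503 (mTEC-III) and 637 and 621 (mTEC-IV). The mTEC-III libraries were below all others, a difference of -0.37 ± 0.067 (SE, log2; limma, adjusted p = 0.000638), and the call was kept without any 1 library.

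Of the 5 NF-kB subunits the F test called 4 (80%, against 54.2% of all genes). This tally depends on the setting: Nfkb1, not called (limma, adjusted p = 0.107), was called with equal totals in peaks (adjusted p = 0.0132), cyclic loess (0.0235), edgeR (0.0233), peaks within 20 kb (0.0121) and without mTEC-I replicate 1 (0.00185). The F call of Relb (limma, adjusted p = 0.0496) was lost when any of 5 of 8 libraries was left out one at a time (adjusted p from 0.0507 to 0.534) and over peaks within 20 kb (adjusted p = 0.0529). The subunits of the non-canonical branch differed in order. Nfkb2 stood at 357 and 332 tags per 10000000 (mTEC-I), 416 and 445 (mTEC-II), 459 and 481 (mTEC-III) and 514 and 538 (mTEC-IV). The summed levels did not overlap, rising from mTEC-I through mTEC-II and mTEC-III to mTEC-IV, but the start-site peak was highest in mTEC-III. That peak stood at 337 and 320.2 (mTEC-I), 328 and 360.6 (mTEC-II), 391 and 423 (mTEC-III) and 356 and 384 (mTEC-IV). For the summed level, mTEC-III against mTEC-II and mTEC-IV against mTEC-III were not called (limma, adjusted p = 0.302 and 0.168). The difference was -0.46 ± 0.07 (SE, log2; limma, adjusted p = 0.000111) in mTEC-I and 0.35 ± 0.07 (SE, log2; limma, adjusted p = 0.000911) in mTEC-IV, and the second was no longer called with cyclic loess scaling, at 0.16 (adjusted p = 0.0902).

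The distal peaks of Nfkb2 had a wider range than the gene. The one 7.6 kb upstream (chr19:46370756-46372552, mm9) stood at 3.10 and 5.88 tags per 10000000 (mTEC-I), 25.9 and 33.3 (mTEC-II), 37.2 and 34.1 (mTEC-III) and 78.6 and 80.05 (mTEC-IV). It differed by -3.07 ± 0.28 (SE, log2; limma, adjusted p = 1.61e-05) in mTEC-I and 2.15 ± 0.28 (SE, log2; limma, adjusted p = 0.000127) in mTEC-IV. Its mTEC-I levels, 3.10 and 5.88, are at or under the 3 tags that a count of 0 allows there, 4.64 and 17.6. Another peak, 59.9 kb upstream in an intron of Gbf1, was assigned to Nfkb2 by distance alone.

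Relb stood at 162 and 197 tags per 10000000 (mTEC-I), 183 and 171 (mTEC-II), 163 and 202 (mTEC-III) and 115 and 149 (mTEC-IV). The mTEC-IV libraries were below all others, a difference of -0.45 ± 0.13 (SE, log2; limma, adjusted p = 0.0134), but without mTEC-IV replicate 1 the difference was -0.27 (adjusted p = 0.306). Rel (c-Rel) stood at 254 and 209 tags per 10000000 (mTEC-I), 297 and 332 (mTEC-II), 305 and 399.8 (mTEC-III) and 267 and 320.2 (mTEC-IV). The mTEC-I libraries were below all others, a difference of -0.46 ± 0.11 (SE, log2; limma, adjusted p = 0.00497). In mTEC-III the difference was 0.34 ± 0.11 (SE, log2; limma, adjusted p = 0.0363). That mTEC-III call was lost when any of 3 of 8 libraries was left out one at a time, at 0.14 without mTEC-III replicate 2. It was also lost with cyclic loess scaling (limma, adjusted p = 0.0734).

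Rela stood at 296 and 367 tags per 10000000 (mTEC-I), 242 and 275 (mTEC-II), 327 and 338 (mTEC-III) and 307 and 323 (mTEC-IV). Its F test (limma, adjusted p = 0.0369) was lost when any of 6 of 8 libraries was left out one at a time (limma, adjusted p from 0.0677 to 0.401). Nfkb1, with 10 peaks, stood at 873 and 1037 tags per 10000000 (mTEC-I), 856 and 869.7 (mTEC-II), 782 and 881 (mTEC-III) and 806 and 823 (mTEC-IV), and only mTEC-I was called, at 0.19 ± 0.068 (SE, log2; limma, adjusted p = 0.0424). This call was lost when any of 6 of 8 libraries was left out one at a time, and the difference was 0.06 without mTEC-I replicate 2. It was also lost with edgeR (adjusted p = 0.169) and DESeq2 (adjusted p = 0.231). The Nfkb1 peak in intron 12, 83.0 kb from the start site, stood at 23.99 and 58.8 tags per 10000000 (mTEC-I), 51.6 and 54.1 (mTEC-II), 12.6 and 21.8 (mTEC-III) and 124 and 128 (mTEC-IV). There mTEC-IV was highest and mTEC-III lowest, with differences of 1.94 ± 0.30 (SE, log2; limma, adjusted p = 0.000398) and -1.86 ± 0.30 (SE, log2; limma, adjusted p = 0.00122).

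Of the 6 IkB family members the F test called 2, Nfkbia and Nfkbiz (33.3%, against 54.2% of all genes). Nfkbia (IkB alpha), the inhibitor induced by NF-kB itself, stood at 980.4 and 896 tags per 10000000 (mTEC-I), 1105 and 1133 (mTEC-II), 1034 and 1100.4 (mTEC-III) and 1210.2 and 1084 (mTEC-IV). The mTEC-I libraries were below all others, a difference of -0.24 ± 0.058 (SE, log2; limma, adjusted p = 0.00398). This lay in distal peaks, since over peaks within 20 kb of the start site the mTEC-I difference was 0.07 (adjusted p = 0.463). The peak 28.6 kb from the start site stood at 290.2 and 167 tags per 10000000 (mTEC-I), 363 and 371 (mTEC-II), 352 and 354 (mTEC-III) and 479 and 423 (mTEC-IV) and was singled out after its values were seen.

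Nfkbiz (IkB zeta), a nuclear cofactor of NF-kB, stood at 924 and 946 tags per 10000000 (mTEC-I), 709.8 and 725 (mTEC-II), 851 and 958 (mTEC-III) and 834 and 934 (mTEC-IV). The mTEC-II libraries were below all others, a difference of -0.34 ± 0.062 (SE, log2; limma, adjusted p = 0.00138), a call that ended without mTEC-II replicate 1 (adjusted p = 0.053). Its peak 24.8 kb upstream, in an intron of Nxpe3, stood at 35.6 and 35.2 tags per 10000000 (mTEC-I), 23.03 and 18.5 (mTEC-II), 53.6 and 44.2 (mTEC-III) and 57.2 and 66.3 (mTEC-IV), with a difference of -1.16 ± 0.21 (SE, log2; limma, adjusted p = 0.00404) in mTEC-II that ended without either mTEC-II library (adjusted p from 0.0536 to 0.113).

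Of the 6 genes named as TNF-induced the F test called 5 (83.3%, against 54.2% of all genes). Tnfaip3 (A20), the ubiquitin-editing brake on NF-kB, was highest in mTEC-I at its start-site peak and in mTEC-IV at a distal peak. The start-site peak stood at 682 and 740.3 tags per 10000000 (mTEC-I), 445 and 455 (mTEC-II), 479 and 571 (mTEC-III) and 462 and 464 (mTEC-IV). Both mTEC-I libraries were above all others there, by 0.57 ± 0.074 (SE, log2; limma, adjusted p = 0.000143). The peak 7.8 kb upstream (chr10:18741189-18744923, mm9) stood at 23.2 and 23.5 tags per 10000000 (mTEC-I), 33.1 and 42.95 (mTEC-II), 17.7 and 22.4 (mTEC-III) and 329 and 286 (mTEC-IV). It was far higher in mTEC-IV, by 3.51 ± 0.19 (SE, log2; limma, adjusted p = 2.49e-07), and that call and the mTEC-I call of the start-site peak were kept without any 1 library.

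Summed over its peaks Tnfaip3 stood at 763 and 825 tags per 10000000 (mTEC-I), 519.7 and 549 (mTEC-II), 536 and 633 (mTEC-III) and 809.9 and 766 (mTEC-IV). The differences were 0.34 ± 0.07 (SE, log2; limma, adjusted p = 0.00137) in mTEC-I, 0.33 ± 0.07 (SE, log2; limma, adjusted p = 0.00166) in mTEC-IV and -0.42 ± 0.07 (SE, log2; limma, adjusted p = 0.000699) in mTEC-II. The mTEC-IV call ended without mTEC-IV replicate 1 (adjusted p = 0.0572).

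Tnfaip2 had the smallest p of the members in mTEC-III. It stood at 479.8 and 426 tags per 10000000 (mTEC-I), 364 and 382 (mTEC-II), 575 and 562 (mTEC-III) and 340.3 and 351 (mTEC-IV), and both mTEC-III libraries were above all others. The difference was 0.55 ± 0.072 (SE, log2; limma, adjusted p = 3.74e-05) in mTEC-III and -0.40 ± 0.072 (SE, log2; limma, adjusted p = 0.000367) in mTEC-IV. Tnfaip8 stood at 849.6 and 740.3 tags per 10000000 (mTEC-I), 1037 and 1012 (mTEC-II), 1027 and 1122 (mTEC-III) and 1056 and 979 (mTEC-IV), with mTEC-I below all others, a difference of -0.39 ± 0.062 (SE, log2; limma, adjusted p = 0.000179). Tnfaip8l3 stood at 208 and 191 tags per 10000000 (mTEC-I), 177 and 191 (mTEC-II), 133 and 147 (mTEC-III) and 167 and 176 (mTEC-IV), with a difference of -0.40 ± 0.10 (SE, log2; limma, adjusted p = 0.0085) in mTEC-III that was lost without mTEC-III replicate 1, at -0.33 (adjusted p = 0.125).

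A peak was counted as a start-site peak where its interval covers the start site, which held for 54 of the 131 member peaks, and 51 of the 55 genes had at least 1. All 4 genes without one (Tnfrsf13b, Tnfrsf25, Tnfsf18 and Tnfsf4) are receptors or ligands. The F test called 31 of 54 start-site peaks (57.4%, against 42.4% of all start-site peaks) and 57 of 77 distal peaks (74%, against 71%). The range from the lowest to the highest population mean had a median of 0.46 (log2) at start-site peaks and 1.26 at distal ones, beside 0.41 and 1.44 over all peaks.

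**Figure D5:**
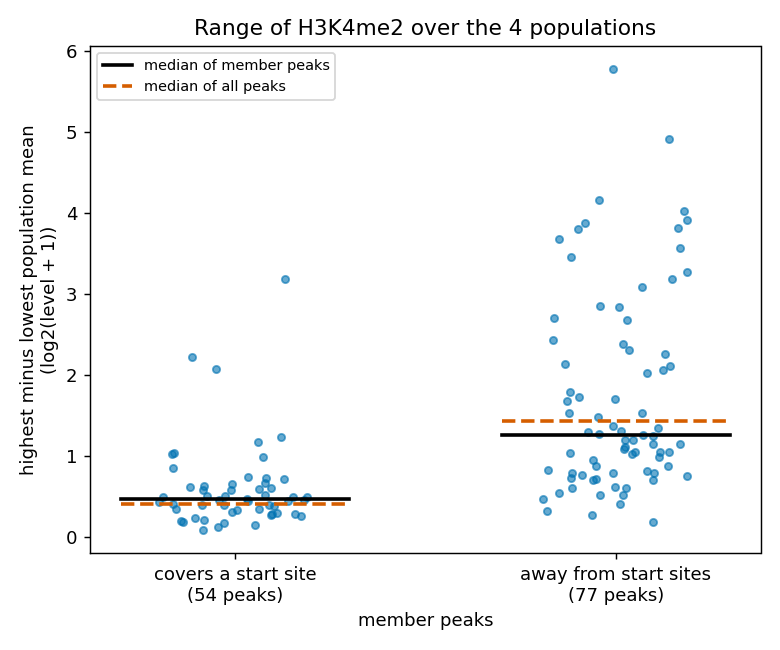
Points are member peaks, split into 54 that cover a start site and 77 that do not, and the vertical axis is the highest minus the lowest population mean of log2(level + 1). The solid line is the median of the member peaks and the dashed line that of all peaks. The distal peaks reach 5.78 and their median, 1.26, is above the 0.46 of the start-site peaks.

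The highest population also differed by position. Among the 77 distal member peaks mTEC-II was highest at 29 (37.7%, against 24.6% of all distal peaks), mTEC-IV at 27 (35.1%, against 41.3%), mTEC-III at 16 (20.8%, against 16.2%) and mTEC-I at 5 (6.49%, against 17.9%). Among the 54 start-site peaks mTEC-I was highest at 23 (42.6%, against 39.5%), mTEC-II at 12 (22.2%, against 8.09%), mTEC-III at 12 (22.2%, against 30.8%) and mTEC-IV at 7 (13%, against 21.5%). These are descriptions with no test.

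In the authors' deposited peak lists, 1 per population, 33 of the 131 member peaks overlapped the mTEC-I list (25.2%, against 23.4% of all merged peaks), 108 the mTEC-II list (82.4%, against 80.2%), 83 the mTEC-III list (63.4%, against 64.5%) and 86 the mTEC-IV list (65.6%, against 75.5%). The lists differ in length, from 7036 to 23949 peaks. By this count 33 member peaks were in all 4 lists (25.2%, against 22.9% of all merged peaks) and 49 in 1 list (37.4%, against 33.3%). The intron 5 peak of Traf1 and the start-site peak of Tnfrsf9 were in the mTEC-II list alone, and the distal peaks of Tnfaip3 (7.8 kb upstream), Nfkb2 (7.6 kb upstream) and Tnfrsf8 (intron 1) in the mTEC-IV list alone.

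Genes of the pathway outside the naming rule were counted from a further list of 43, of which 36 had a peak and 21 were called by the F test (58.3%, against 54.2% of all genes). In mTEC-I 3 were higher and 9 lower (17.2% and 17.7% of all genes), in mTEC-II 7 were higher and 2 lower (8.56% and 11.2%), in mTEC-III 10 were higher and 2 lower (12.1% and 16.7%), and in mTEC-IV 5 were higher and 11 lower (20.4% and 12.6%). Tank, a TRAF-binding adaptor, had the smallest p, with differences of 0.73 ± 0.044 (SE, log2; limma, adjusted p = 3.47e-09) in mTEC-IV and -0.69 ± 0.044 (SE, log2; limma, adjusted p = 1.84e-08) in mTEC-I. Relt, an orphan TNF receptor, was higher in mTEC-II by 0.82 ± 0.086 (SE, log2; limma, adjusted p = 1.37e-05). Ngfr, the neurotrophin receptor p75, was lower in mTEC-III, at -1.18 ± 0.098 (SE, log2; limma, adjusted p = 6.22e-07), and higher in mTEC-IV, at 0.92 ± 0.098 (SE, log2; limma, adjusted p = 2.32e-06). Ikbkb, the kinase of the canonical branch, was higher in mTEC-II by 0.46 ± 0.085 (SE, log2; limma, adjusted p = 0.0016), with an adjusted p of 0.0617 by limma when mTEC-II replicate 1 was left out. Cflar, the caspase inhibitor cFLIP, was lower in mTEC-IV, at -0.45 ± 0.059 (SE, log2; limma, adjusted p = 1.84e-05). Fas, the death receptor, was higher in mTEC-II by 0.46 ± 0.075 (SE, log2; limma, adjusted p = 0.000512).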

How the data were processed

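H3K4me2 was measured in 8 libraries of 4 sorted mTEC populations. The submitters' processing notes name genome build mm9, Picard 1.108 and bcl2fastq 2.15.0.4, and no aligner. Per the file headers, the authors made the merged table with HOMER's annotatePeaks. The deposited signal of each peak is in tags per 10000000 tags of the library. The deposited lists hold each peak's fold over a control, as the authors gave it, and 1 list combines both replicates of a population. Depth followed from the header totals, and floors of 3 tags cover counting error only. Converted back to tags, 100% of values came within 0.1 of whole steps of 0.5.

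Peaks at 10 or more in at least 2 libraries were kept, and 2 mitochondrial peaks were left out. All 55 member genes and 131 member peaks passed. Levels were summed per gene, and log2(level + 1) was tested with limma 3.58.1 (R 4.3.3, trended variance) on all 8 libraries in 1 fit, after a check on simulated data. The log scale understates the change of low peaks. The table holds normalized values, so edgeR 4.0.16 and DESeq2 1.42.0 on steps of 0.5 tags (2 counts per tag) are alternatives; by their overall tests they called 9717 and 8595 of 15738 genes. Other alternatives changed the pseudocount, filter, scaling, replicate block, distance of peaks and libraries. Named genes were a panel of mTEC pathway genes, the 4 of smallest p each way per population, and the 5 of smallest F test p; named peaks were the 2 of smallest p each way. The members, lists and rules were chosen with earlier results of these data known. Promoter sequences come from RefSeq (GRCm38.p6).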

Additional observations from a re-analysis of the deposited data

How the results depend on the processing

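The F test called 35 member genes, and between 27 and 45 when 1 library was left out; for member peaks it called 88, and between 63 and 113; the lone library of a population was then assumed to vary like the others. Member genes called in 1 population against the mean of the other 3 went from 27 to between 18 and 28 in mTEC-I, from 22 to between 7 and 27 in mTEC-II, from 13 to between 8 and 20 in mTEC-III, and from 21 to between 12 and 29 in mTEC-IV. Over the 4 populations and every pair, 177 calls of named genes became between 117 and 206. Over peaks within 20 kb of the start site, the Nfkbia difference became 0.066 in mTEC-I against the rest, -0.021 in mTEC-II against mTEC-I and -0.12 in mTEC-IV against mTEC-I, the opposite sign to the values over all peaks, and Tank, in mTEC-IV against mTEC-III, became -0.078; the alternative leaves out the peaks farther away. Tnfsf18 in mTEC-I became 0.11 with cyclic loess, and the cause was not tested. Where at least 50% of a merged peak had to be covered, 18 member peaks were in the mTEC-I list, not 33. With the replicate number as a block, 36 genes and 86 peaks passed the F test. Same-numbered libraries deviated with correlations between -0.0071 and 0.036. With 2 libraries per population these values cannot decide whether same-numbered libraries share a mouse or a batch, which the labels do not state. The depth of mTEC-I replicate 2 (1702103.5 tags) limits low levels in mTEC-I.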
